A study of Mus musculus with 2 samples.

Results

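The 28 genes described here encode the enzymes that build cholesterol and related isoprenoids from acetyl-CoA, together with SREBP2 (gene Srebf2), the transcription factor that controls most of them, and 3 of its known sterol-regulated targets. They were taken by name and pathway step, with no threshold on their signals, although earlier results of these data were known. Of the 20652 genes with a named probe on the array, 16346 were well above background on at least 1 array, and all 28 were well above background on both. RNA came from the livers of male mice under 2 conditions, fasting and feeding, and each condition was measured on 1 Agilent whole-genome array labelled with Cy3 and hybridized with a pool of RNA from 3 livers. The study's methods give C57BL/6J males of about 8 to 12 weeks on chow for its wild-type mice, and no transgene or drug is named in the labels of either pool. The fast is put at 16 h in the label of the fasting pool and at 14 to 16 h, overnight, in the treatment protocol. The feeding pool is called ad libitum fed in its own label, whereas the protocol and the study's own account describe food given after a fast, so its label and the other sources differ on whether these were refed livers. With 1 array per condition there was no replicate check, no test between the conditions was possible, and differences between mice within a pool were not measured. In a bulk liver sample, fewer cells of a type and less RNA per cell cannot be told apart.

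Cholesterol synthesis starts with the condensation of acetyl-CoA units into HMG-CoA and mevalonate, passes through activated isoprene units to farnesyl diphosphate, and commits to sterols when squalene is made and closed to lanosterol. Lanosterol is then trimmed and reduced to cholesterol in the endoplasmic reticulum, while farnesyl diphosphate also feeds ubiquinone, dolichol and prenylated proteins. When membrane sterol is low, SCAP escorts SREBP2 from the endoplasmic reticulum to the Golgi, where the proteases S1P and S2P release the part that enters the nucleus and binds sterol regulatory elements, usually beside NF-Y and Sp1 sites. When sterol is high, INSIG proteins hold SCAP back. The liver is a main site of this synthesis and supplies cholesterol for lipoproteins and bile acids.

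All values below are processed spot intensities after quantile normalization between the 2 arrays, and a difference is feeding minus fasting on the log2 scale. The intensity of a probe depends on its sequence, so signals were compared between the arrays and not between genes. The file headers give a single scan for both arrays, which held different positions. Neither array had a saturated spot. The share of probe spots well above background was 63.1% on the fasting array and 72.3% on the feeding array, and the median local background was 30 and 22 intensity units. Probes spotted repeatedly gave the only error that could be measured, which covers the array and not the mice: the SD of a difference was 0.29 in the dimmest of 3 equal groups by signal (55 probes), 0.14 in the middle (110 probes) and 0.09 in the brightest (120 probes). By the probe used for the gene, 13 of the 28 genes lay in the brightest group and 15 in the middle.

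The 8 hepatocyte markers were well above background on both arrays and differed by -0.43 to 0.03. The 5 liver endothelial markers were all lower upon feeding, with a summed signal of 35391 against 27189. Pecam1, an adhesion molecule of endothelium, had 470 against 229. Its difference was past 2-fold as reported but -0.79 with a model-based background correction (normexp) and -0.98 with median scaling. The normexp correction adds 50 intensity units to every signal, which alone makes the differences of dim probes smaller. The summed signal was 17186 upon fasting and 11130 upon feeding for stellate cell markers (4 of 5 measured on both arrays) and 49712 and 39586 for Kupffer cell and leukocyte markers (7 of 8). It was 2757 and 3378 for cholangiocyte markers (4 of 5), among which Sox9, a transcription factor of bile duct cells, had 377 and 1626. Of the 5 cholangiocyte markers, 3 were above 0 and 2 below it, with a median of 0.08 and a lowest of -0.46. The summed signal was 23677 and 22660 for red blood cell markers (3 of 5 measured on at least 1 array). For pancreas and adipocyte markers (5 of 7) it was 229 and 297. The pancreatic elastase Cela2a had 48.7 and 7.50, a difference of -2.70 that was -0.40 with normexp. These sums cover every listed marker with a probe. The part of these cells in the differences below was not tested.

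Most of the cholesterol genes had a slightly higher signal upon feeding. Of the 28, 22 were above 0 and 6 below it, beside 49.8% above 0 among the 14515 genes well above background on both arrays. Their median difference was 0.23, against 0.00 over all genes, and their range ran from -1.28 to 2.66. At the 2-fold threshold 4 genes were higher upon feeding, namely Mvd, Stard4, Pdss1 and Insig1, beside 3.29% of the 16346 genes measured. Only Hsd17b7 was at least 2-fold lower, beside 4.62% of all genes. Differences beyond 2 SD of replicate spots were seen in 15 genes in the higher direction and 5 in the lower, and 8 genes stayed within it. Among all genes well above background on both arrays 25.1% and 24.1% passed that limit, so it sets a gene apart from spot noise and not from the rest of the liver transcriptome.

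**Figure D1:**
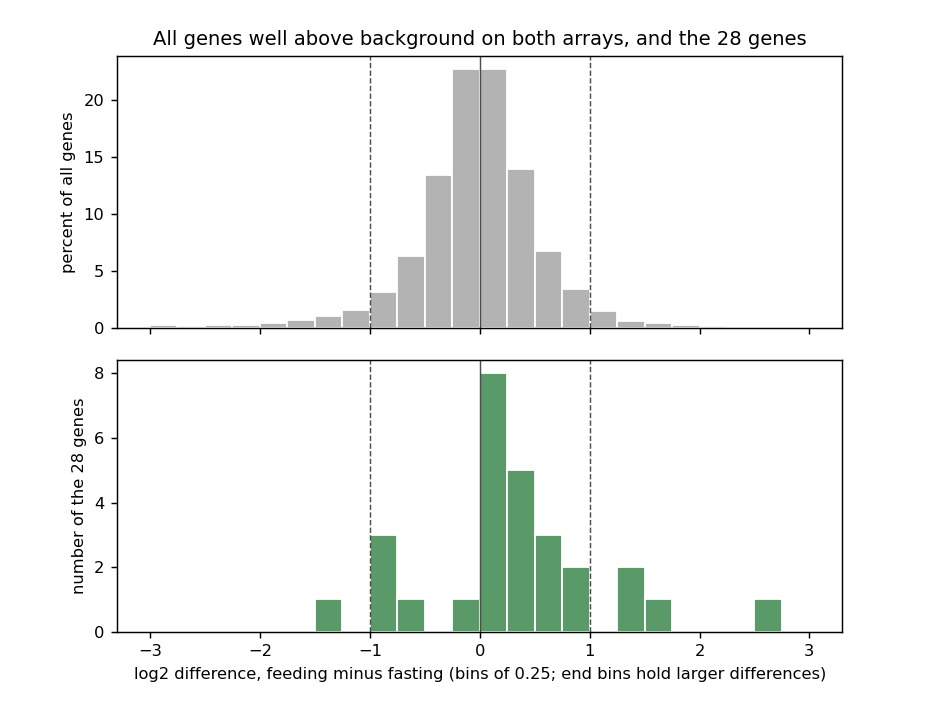
Histograms of the log2 difference (feeding minus fasting, x axis, bins of 0.25) for the genes well above background on both arrays (upper panel, percent of genes) and for the 28 cholesterol genes (lower panel, number of genes), with dashed lines at 2-fold. The upper panel is centred on 0, whereas 22 of the 28 genes lie above 0, and 4 lie beyond the upper dashed line and 1 beyond the lower.

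The sequence before the start of each gene was read from a set of RefSeq promoters (GRCm38.p6) that held 24 of the 28 genes with 27 start sites. Fdps, Fdft1, Sqle and Stard4 had no entry in that set. The 250 bases before the start were searched on both strands for the sterol regulatory element core TCACNCCAC, the NF-Y box CCAAT, the GC box GGGCGG bound by Sp1 and the E-box CACGTG, which SREBPs can also bind. The last letters of the sterol element can also begin an E-box, but the sole sterol element found had no E-box in its window. The windows below were chosen to show the sole exact sterol element (Hmgcs1), the gene with the largest difference (Mvd), the gene 2-fold lower (Hsd17b7), a gene that was 2-fold higher with no motif (Pdss1), the factor itself (Srebf2) and its feedback inhibitor (Insig1). Each reads 5′ to 3′ on the strand of the gene and ends at the base before the start, and capitals mark every exact match, where ATTGG and CCGCCC are the NF-Y and GC boxes on the opposite strand. They lie at chr13:119690101-119690350 (+), chr8:122443423-122443672 (-), chr1:169969206-169969455 (-), chr2:22895272-22895521 (+), chr15:82147019-82147268 (+) and chr5:28071162-28071411 (+).
Hmgcs1: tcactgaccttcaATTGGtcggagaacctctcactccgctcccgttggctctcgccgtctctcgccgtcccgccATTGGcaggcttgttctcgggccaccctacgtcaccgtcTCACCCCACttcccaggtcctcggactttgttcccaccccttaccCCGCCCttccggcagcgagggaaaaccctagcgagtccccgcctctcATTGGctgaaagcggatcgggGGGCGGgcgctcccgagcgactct
Mvd: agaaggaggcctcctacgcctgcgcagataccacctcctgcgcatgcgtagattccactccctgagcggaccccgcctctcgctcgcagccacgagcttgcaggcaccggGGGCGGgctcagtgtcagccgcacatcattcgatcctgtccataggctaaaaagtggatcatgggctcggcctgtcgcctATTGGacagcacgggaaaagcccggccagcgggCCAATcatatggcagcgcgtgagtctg
Hsd17b7: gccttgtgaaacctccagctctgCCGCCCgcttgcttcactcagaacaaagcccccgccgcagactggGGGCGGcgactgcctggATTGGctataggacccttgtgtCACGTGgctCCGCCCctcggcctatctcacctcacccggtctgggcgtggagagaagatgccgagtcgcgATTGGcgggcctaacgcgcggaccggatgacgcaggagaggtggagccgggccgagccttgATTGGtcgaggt
Pdss1: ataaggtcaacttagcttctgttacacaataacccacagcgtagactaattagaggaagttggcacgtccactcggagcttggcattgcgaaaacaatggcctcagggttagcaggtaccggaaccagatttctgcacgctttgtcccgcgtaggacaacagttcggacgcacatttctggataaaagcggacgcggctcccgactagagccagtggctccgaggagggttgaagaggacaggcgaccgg
Srebf2: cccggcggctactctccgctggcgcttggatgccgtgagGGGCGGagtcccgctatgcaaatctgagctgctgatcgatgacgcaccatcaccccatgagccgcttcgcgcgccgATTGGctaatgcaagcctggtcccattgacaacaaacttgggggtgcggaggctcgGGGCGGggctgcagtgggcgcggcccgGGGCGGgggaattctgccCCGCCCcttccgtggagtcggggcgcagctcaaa
Insig1: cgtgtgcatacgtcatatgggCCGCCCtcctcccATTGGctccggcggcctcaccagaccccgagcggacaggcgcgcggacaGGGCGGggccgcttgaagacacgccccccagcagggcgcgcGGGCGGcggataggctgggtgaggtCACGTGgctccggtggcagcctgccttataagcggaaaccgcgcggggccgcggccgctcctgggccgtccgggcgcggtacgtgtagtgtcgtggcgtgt

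The NF-Y box was the motif most of these promoters shared. It was found in 21 of the 24 genes (87.5%), against 37.5% of the 27025 genes with a promoter entry and 39.9% of those measured on the arrays, and Acat2, Pdss1 and Coq2 lacked it. Its 42 matches lay 12 to 237 bases before the start, with a median of 64.5. A GC box stood in 19 of 24 (79.2%), against 35.4% of all genes and 54.8% of those measured. The promoters of these genes were also richer in G and C, with a median of 62.8% against 52.4% over all promoters and 58.0% over those of measured genes. An E-box stood in 5 of 24 (20.8%), namely Hsd17b7, Sc5d, Dhcr7, Dhdds and Insig1, against 6.86% of all genes and 8.82% of those measured. A gene counted if any of its start sites held the motif, and Dhcr7 had 3. The exact sterol regulatory element core was found in Hmgcs1 alone, 137 bases before its start, against 1.22% of all genes and 1.26% of those measured. With 1 mismatch allowed it was found in 10 of 24 (41.7%), against 23.0% of all genes and 24.8% of those measured. Srebf2, Insig1 and Hsd17b7 were among the 10, but Mvd was not. A match is a description of letters and not a site of binding, and a window without one says only that these letters are not in it.

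**Figure D2:**
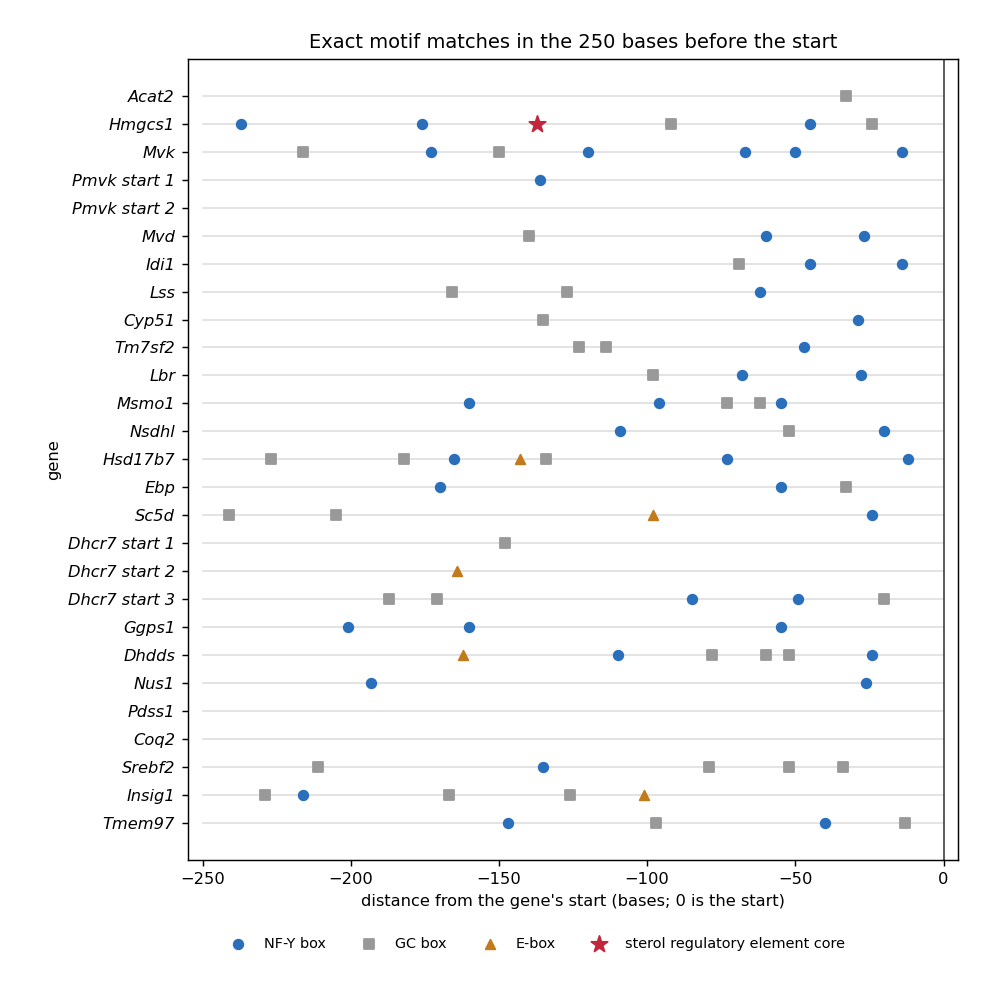
Exact matches to 4 motifs in the 250 bases before each start of the 24 cholesterol genes with a promoter entry; the x axis is the distance from the start in bases and each line is 1 start site. NF-Y boxes (circles) fall in 21 genes, mostly close to the start, the only sterol regulatory element core (star) is in Hmgcs1, and the lines of Pdss1 and Coq2 are empty.

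In the early pathway up to farnesyl diphosphate, 6 of 7 genes were above 0 and 1 was below, with a median of 0.26, but their differences were unequal. Of all genes well above background on both arrays, 49.8% were above 0. Mvd, which decarboxylates mevalonate diphosphate to isopentenyl diphosphate, had a signal of 58.1 upon fasting and 367 upon feeding, a difference of 2.66 or 6.32-fold. It ranked 29th among all genes in the higher direction, with 0.17% of genes above it. Its spots read 115 and 383.5 before background subtraction, over local backgrounds of 32.5 and 21.5, so the fasting signal was the less certain, and with normexp the difference was 1.44, still past 2-fold. Fdps, the synthase of farnesyl diphosphate at the branch point, had 2102 and 3112, which is 1.48-fold higher. Mvk and Pmvk, the kinases that phosphorylate mevalonate in succession, had small positive differences of 0.28 and 0.26, and their second probes gave 0.71 and 0.36.

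The entry steps did not share the direction of Mvd. Acat2, the cytosolic thiolase that joins acetyl-CoA units, had 3074 upon fasting and 1561 upon feeding, 1.97-fold lower and just short of the threshold. Hmgcs1, the cytosolic HMG-CoA synthase and the gene with the exact sterol element, was level at 4144 and 4177. Idi1, which interconverts the isoprene units, was level as well at 3751 and 3755, with a difference of 0.00. Thus the genes of consecutive steps differed by -0.98 to 2.66, a spread far wider than the SD of 0.09 to 0.14 of spots at these signals.

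The 3 genes that form squalene and close it to lanosterol were all higher upon feeding, with none past 2-fold and a median of 0.79. Beside them, 49.8% of genes well above background on both arrays were above 0, and 3.29% of all genes were 2-fold higher. Fdft1, the squalene synthase, had 1397 and 2080, or 1.49-fold. A second, dim Fdft1 probe was not well above background upon fasting (10.1 against 18.8) and was not used. Sqle, the squalene monooxygenase and a rate-limiting step, had 1122 and 1942, or 1.73-fold. Lss, the lanosterol synthase, had 184 and 322, or 1.76-fold. This was the most even of the steps, with differences of 0.57 to 0.81, each beyond 2 SD of replicate spots.

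From lanosterol to cholesterol the 9 genes were divided, with 5 above 0 and 4 below it, a median of 0.14, none 2-fold higher and 1 2-fold lower. Over all genes 3.29% were 2-fold higher and 4.62% lower. Among those well above background on both arrays, 49.8% were above 0. Cyp51, the lanosterol demethylase that opens this stretch, had 297 and 451, or 1.52-fold higher. Tm7sf2, a sterol reductase that saturates the ring double bond left by Cyp51, had 4223 and 2563, 1.65-fold lower, and its second probe agreed in direction with 529 and 355. Lbr, the lamin B receptor with the same reductase activity, had 556 and 642, and its second probe 62.0 and 55.8, both within 2 SD of spot noise. Msmo1, which oxidizes the methyl groups of the ring, was nearly level at 2741 and 2434, a difference of -0.17. Nsdhl, the dehydrogenase that removes the oxidized carbon, had 414 and 225, 1.84-fold lower, while its dim second probe gave 60.7 and 52.8.

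Hsd17b7, the ketoreductase that completes the removal of the methyl groups, was the lowest of the 28 and the single gene past 2-fold in that direction. Its brighter probe had 1311 upon fasting and 540 upon feeding, 2.43-fold lower, ranked 512th among all decreases. A second probe at far lower intensity had 71.1 and 79.0, a difference of 0.15 with a spot SD of 0.29, and the mean of both probes was -0.56, which is short of 2-fold. The gene's promoter carried 3 NF-Y boxes, 3 GC boxes and an E-box. Whether these motifs bear on its signal was not tested. The last steps were slightly higher upon feeding. Ebp, the sterol isomerase, had 21458 and 24725, or 1.15-fold, and Sc5d, the desaturase after it, had 10766 and 13672, or 1.27-fold. Dhcr7, the reductase that yields cholesterol, had 559 and 618, a difference of 0.14 that was within 2 SD of replicate spots.

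**Figure D3:**
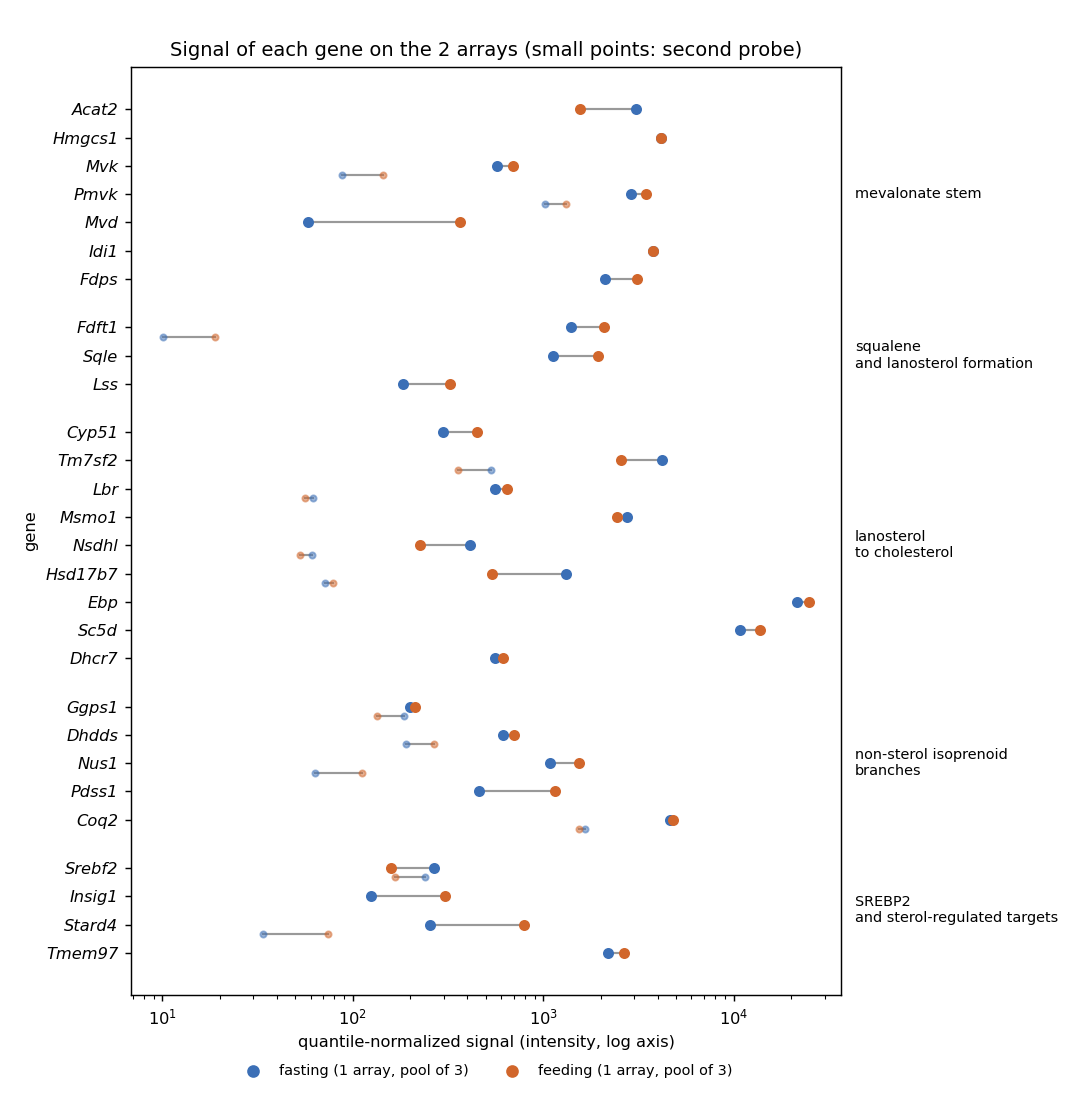
Quantile-normalized signal (x axis, intensity on a log scale) of each of the 28 genes on the fasting (blue) and feeding (orange) array, 1 pool of 3 livers each, with second probes as small points. Mvd (58.1 and 367), Pdss1, Insig1 and Stard4 show the long lines to the right. By the probe used for the gene, Acat2, Tm7sf2, Nsdhl, Hsd17b7, Srebf2 and, slightly, Msmo1 run the other way.

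The 5 genes of the non-sterol branches were all above 0 by the probe used for the gene, with a median of 0.19, and 1 of them was 2-fold higher. The shares beside these were 49.8% above 0 among genes well above background on both arrays and 3.29% 2-fold higher among all genes. Pdss1, a subunit of the enzyme that makes the isoprenoid tail of ubiquinone, had 459 and 1147, a difference of 1.32. It was the best measured of the 28, because its probe was spotted 10 times on each array. The processed signals of those spots ranged from 461 through a median of 488 to 506 on the fasting array and from 1055 through 1116 to 1180 on the feeding array. The spots of the arrays did not overlap, and their SD was 0.05 on the log2 scale on either array, though all of them sampled the same 2 pools. Coq2, which attaches that tail to the ring of ubiquinone, was level at 4611 and 4792, and its second probe had 1659 and 1537. Dhdds and Nus1 form the cis-prenyltransferase that makes dolichol for protein glycosylation. Nus1 had 1091 and 1537, or 1.41-fold, and 63.0 and 112 with its second probe. Dhdds had 615 and 701 with one probe and 190 and 266 with the other. Ggps1, which makes the geranylgeranyl group for protein prenylation, had 199 and 213, a difference of 0.09, but 187 and 134 with its second probe, so its direction was not settled.

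Srebf2 itself was lower upon feeding, while its feedback inhibitor and a sterol carrier among its targets were higher. The Srebf2 probe had 268 and 159, 1.69-fold lower, and the second probe had 240 and 167, or 1.44-fold lower. Insig1, which retains SCAP in the endoplasmic reticulum when sterols are plentiful, had 124 and 306, or 2.47-fold higher. With the normexp correction this difference was 0.77, below 2-fold. Stard4, a cytosolic carrier that moves cholesterol between membranes, had 253 and 788, or 3.12-fold, and its second probe 33.8 and 74.0, or 2.19-fold. Stard4 ranked 140th among all genes in the higher direction, and was the sole one of the 4 genes past 2-fold with more than 1 probe. Tmem97, a sterol-responsive membrane protein known as the sigma-2 receptor, had 2179 and 2668, or 1.22-fold.

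**Figure D4:**
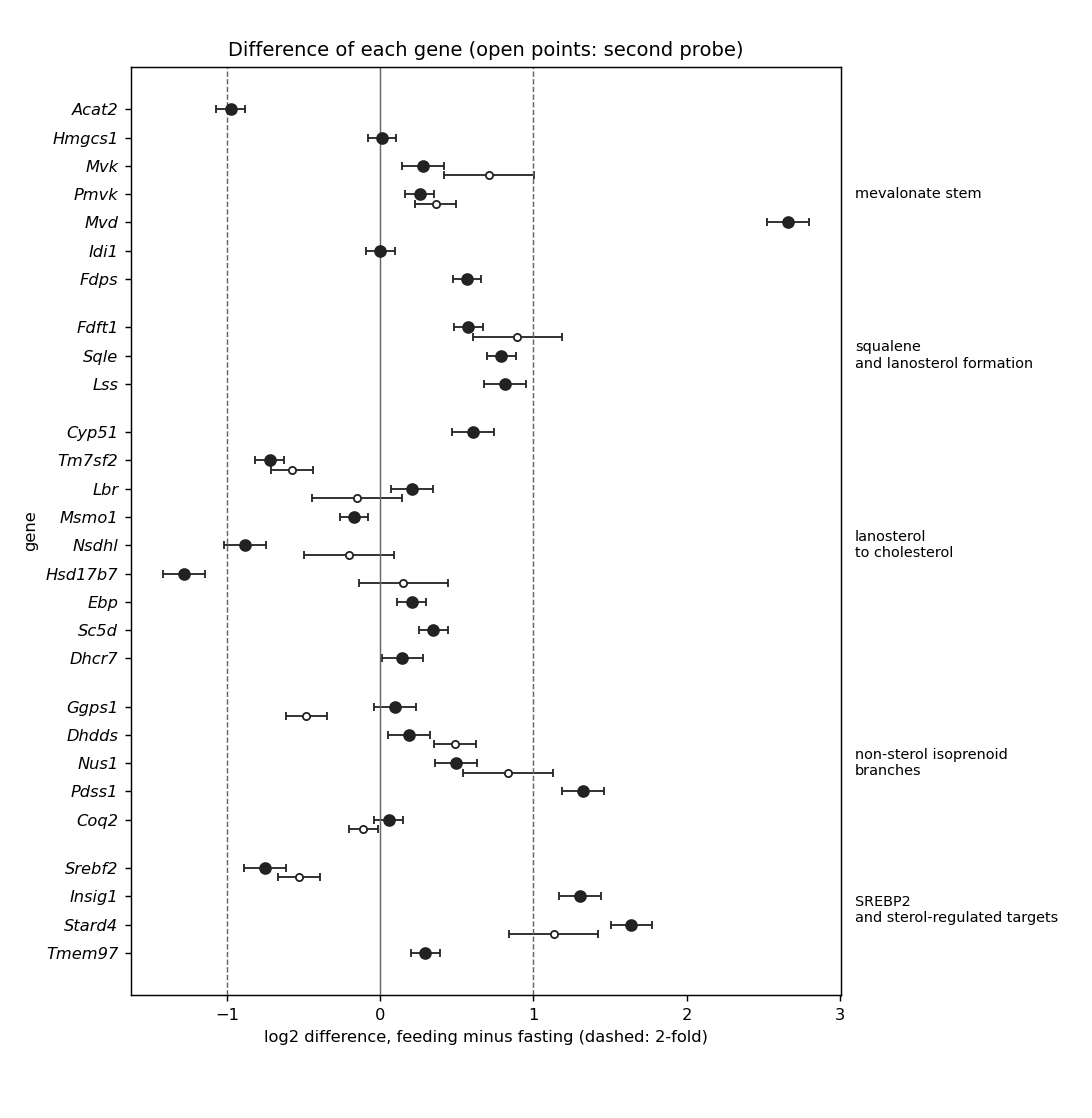
Log2 difference (feeding minus fasting, x axis) of each of the 28 genes in pathway order, with open points for second probes, bars of 1 SD of replicate spots at that signal and dashed lines at 2-fold. The bars cover spot noise on the arrays only; Mvd (2.66), Stard4, Pdss1 and Insig1 lie beyond 2-fold, and Hsd17b7 (-1.28) is the sole gene beyond it on the other side.

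Among 17 genes of sterol sensing and SREBP processing, 1 was 2-fold higher and 0 lower, with a median of 0.10, beside 3.29% higher and 4.62% lower over all genes. The one was Srebf1, whose product SREBP1 mainly drives fatty acid synthesis and shares the processing machinery of SREBP2. It had 191 and 1703, a difference of 3.15 in the direction opposite to Srebf2. Insig2, the second INSIG, was opposite to Insig1, with 40465 and 23158 (-0.81) by one probe and 10343 and 3985 (-1.38) by the other, and with the mean of its probes (-1.09) it would count as 2-fold lower. Scap, the escort, differed by -0.27. Mbtps1, which encodes S1P, differed by -0.32, and a second, dim probe that was not well above background upon fasting had 12.6 and 23.2. Mbtps2, which encodes S2P, was dim at 31.1 and 35.1.

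Of 25 other genes of isoprenoid, ubiquinone and dolichol use, 1 was 2-fold higher and 1 lower, with a median of 0.13, so the counts were near the 3.29% and 4.62% of all genes. Alg2, a mannosyltransferase of the dolichol-linked glycan, had 2394 and 5644. Coq10b, a ubiquinone-binding protein of mitochondria, had 2628 and 902, and 2264 and 737 with its second probe. None of 8 measured electron donors and helpers of sterol synthesis passed, and their median was 0.01. Aacs, which activates acetoacetate in the cytosol and can feed the pathway, had 815 and 3712, a difference of 2.19.

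Of 10 other genes with known SREBP sites 1 was 2-fold higher, Elovl6, a fatty acid elongase, with 3473 and 13748, and the median was -0.26. Of 24 genes of sterol storage, transport and the LXR response 0 were 2-fold higher and 2 lower, with a median of -0.18, beside the same 3.29% and 4.62% of all genes. Those were Abcg8, one part of the canalicular sterol exporter, with 312 and 111, and Ch25h, a cholesterol hydroxylase, with 44.4 and 11.1. Neither passed 2-fold with the normexp correction, where they gave -0.93 and -0.35, but its added 50 units alone shrink differences at low signals.

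For 12 of the 28 genes, at least 2 probes were well above background on both arrays. Their probes had the same sign in 8 genes and opposite signs in 4, which were Lbr, Hsd17b7, Ggps1 and Coq2, beside 29.6% with opposite signs among all 3468 genes with such probes. For 15 genes, Mvd, Insig1 and Pdss1 among them, the array had 1 probe, so no second probe bears on them. Under the 6 other ways to process the arrays that changed any of these values, 24 of the 28 kept their sign. Those that did not were Hmgcs1, Msmo1, Ggps1 and Coq2, all with differences under 0.20 in size. Mvd, Stard4 and Pdss1 stayed past 2-fold under each of the 6, with lowest values of 1.44, 1.23 and 1.13.

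**Figure D5:**
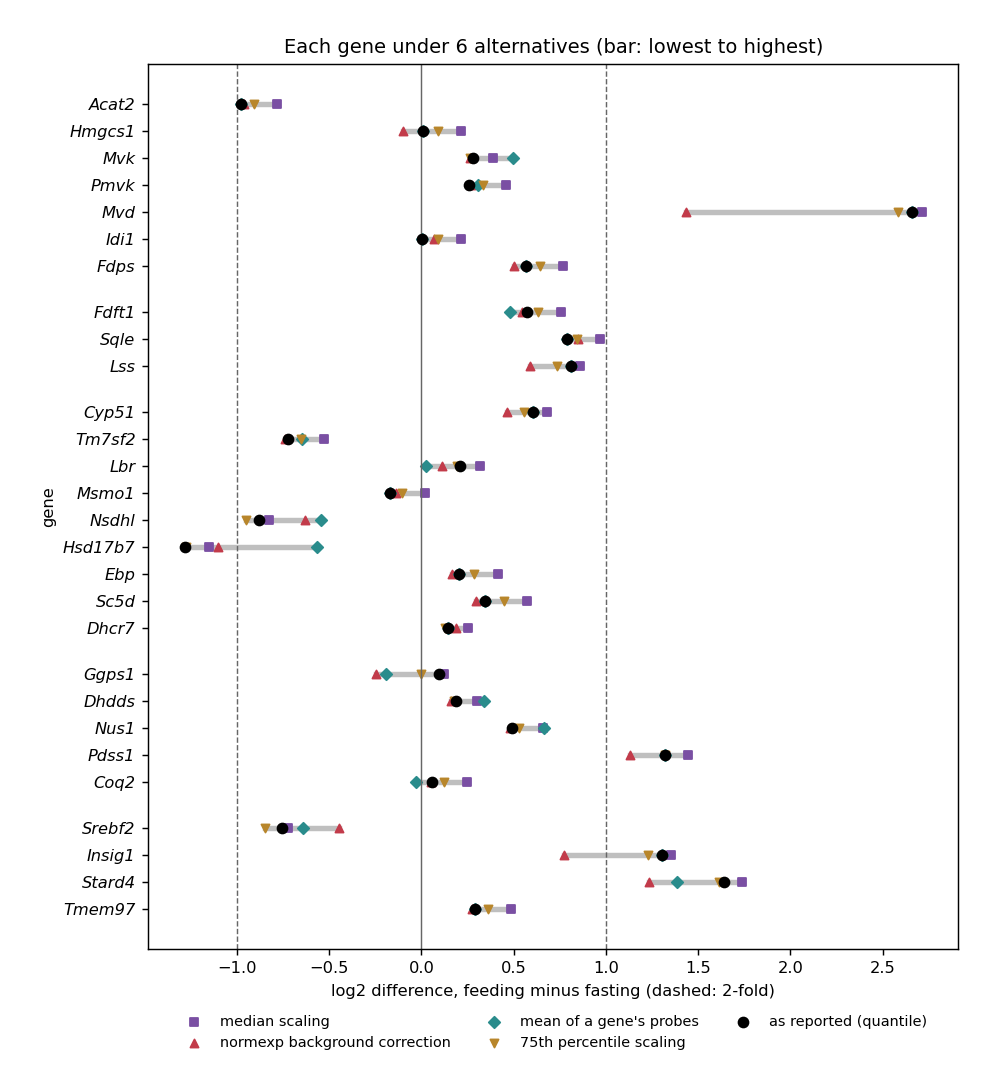
Log2 difference (feeding minus fasting, x axis) of each of the 28 genes as reported (black circles) and under 4 of the 6 alternatives (coloured symbols), with the grey bar from the lowest to the highest of all and dashed lines at 2-fold. Mvd (2.66 and 1.44) and Hsd17b7 (-1.28 and -0.56) have the longest bars, and Acat2, Tm7sf2, Nsdhl, Hsd17b7 and Srebf2 stay below 0 throughout.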

How the data were processed

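Cy3 intensities were deposited for 2 arrays as scanner output that the authors made with Agilent Feature Extraction 11.0.1.1, whose processed signal is background-subtracted. The study's methods name quantile normalization and a 2-fold threshold. Here control and outlier spots were left out and spots of a probe were averaged. The log2 processed signals were then quantile normalized between the arrays in Python 3.11.15 (numpy 2.4.6, pandas 2.3.3). The normexp background correction used limma 3.58.1 in R 4.3.3, on median spot signals and with an offset of 50 intensity units. Probes were named through RefSeq transcripts (27218 of 39402), and a gene was represented by its brightest probe. A probe not well above background on 1 array gave a bound, and on both was left out. Probe positions of the array design are on mm9 and were not used. The deposited value table held the local background intensity of each spot and was not used as expression. No test was made, since each group had 1 array, and the number of arrays limits the precision. The scripts were tested on simulated data. Named genes were the 28, genes past 2-fold in the other lists and in the marker lists, and 4 regulators of SREBP processing (Insig2, Scap, Mbtps1 and Mbtps2) chosen after their values were seen. The summary of the list of acetyl-CoA supply is not reported here. The genes and lists were chosen with earlier results of these data known.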

Additional observations from a re-analysis of the deposited data

How the results depend on the processing

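The median of the 28 genes stayed above 0 under the 6 alternatives that changed any of these genes. Median scaling of the arrays moved it from 0.23 to 0.40, and moved the median of all genes from 0.00 to 0.09. The count of genes higher was 4 as reported, 7 at 1.5-fold, 2 at 3-fold (Mvd and Stard4) and 15 beyond 2 SD of replicate spots, a limit chosen after seeing the data. With the normexp correction it was 3, without Insig1. The count lower was 1 as reported, 5 at 1.5-fold, 0 at 3-fold, 5 beyond 2 SD, and 0 with the mean of a gene's probes, where Hsd17b7 was no longer past 2-fold. The sterol element core was found in 1 promoter exactly and in 10 with 1 mismatch. Of 168 values of single genes under the 6 alternatives that changed any of them, 35 moved by over 1 SD of replicate spots. The other 3, on dim probes and bounds, could not change the 28 genes, which were well above background on both arrays. Hmgcs1 was -0.10 with normexp, Msmo1 0.02 with median scaling, Ggps1 -0.24 with normexp and Coq2 -0.03 with the mean of its probes. Over all genes, 537 were 2-fold higher and 756 lower as reported, 215 and 312 with normexp, 717 and 649 with median scaling, 738 and 645 with quantiles set on bright probes, 876 and 760 without bounds, 838 and 1185 without a filter on dim probes, 1714 and 1737 at 1.5-fold, and 158 and 311 at 3-fold. The share of these calls that were higher was 41.5% as reported, 52.5% with median scaling and 53.4% with bright-probe quantiles. Normexp adds 50 units to each signal, which by itself shrinks the differences of dim probes. The causes of these shifts were not tested. The value table could not serve as an alternative because it held the local background. No paired analysis was possible because each group had 1 array.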
